A study of Rattus norvegicus with 9 samples.

Results

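The miR-132 and miR-212 hairpins are a pair of microRNA precursors that lie next to each other in the rat genome, and both arms of each were followed here: rno-miR-132-3p, rno-miR-132-5p, rno-miR-212-3p and rno-miR-212-5p (written below without the rat prefix rno). They were chosen by name, as the 4 entries of these names among 1422 miRNA entries of the deposited table (653 annotated, 769 predicted). All 4 passed the filter on low counts, which 579 entries passed. The libraries were small RNA libraries of primary heart muscle cells from Sprague Dawley rats 1 to 2 days old, cultured in medium with normal glucose and sequenced 48 h after adenovirus, with 3 libraries in each of 3 groups. Cells labelled genotype WT received Ad-GFP, a virus for green fluorescent protein, as the control. Cells labelled Yap1 overexpression received Ad-Yap WT, and cells labelled Yap1 knock down received Ad-Yap shRNA. All 9 libraries therefore come from virus-exposed cells, and no group carries a non-targeting shRNA, so that lower Yap and the expression of an shRNA cannot be told apart. The table holds miRNAs, so the level of Yap mRNA itself was not checked. Whether the replicates are separate cell isolations, and whether hearts were pooled, the sources used here do not say, so that p-values cover library-to-library spread, which may be technical.

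A miRNA hairpin is cut into a duplex of a 5p and a 3p arm, and the arm loaded into Argonaute pairs through its seed, bases 2 to 8, with target mRNAs. miR-132 and miR-212 are transcribed together, are known to be induced through the transcription factor CREB in neurons, and are known in mouse heart as promoters of cardiomyocyte hypertrophy that repress FoxO3, a transcription factor that restrains hypertrophy and favours autophagy. Yap is the transcriptional co-activator held back by the Hippo pathway, and it drives growth of neonatal heart muscle. The study concerns Yap and miR-22-3p in diabetic heart disease, per its title, and the question asked of these 4 arms is whether their levels differed when Yap was raised or lowered.

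The mature sequences show which arms can share targets. They are given 5′ to 3′ from RefSeq (GRCr8, plus strand of chromosome 10), with the seed in capitals.
miR-132-3p: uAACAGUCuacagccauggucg
miR-212-3p: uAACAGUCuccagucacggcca
miR-132-5p: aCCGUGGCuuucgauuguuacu
miR-212-5p: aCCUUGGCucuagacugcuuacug
The 3p arms carry the same seed, and no other of the 693 mature rat miRNAs in the RefSeq table has it. Counted from 1 at the 5′ end, miR-132-3p and miR-212-3p are identical over the first 9 bases and at 17 of 22 positions, and first differ by A10C. The 5p arms are identical over the first 3 bases and at 14 of 22 positions, and first differ by G4U. Their seeds differ at that base alone, and no other miRNA in the table carries either seed. Each arm's nearest relative was its counterpart on the other hairpin, at 5 edits (substitutions or single-base gaps) between the 3p arms and 6 between the 5p arms. The sources used here do not say how the authors assigned reads that match several miRNAs.

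The hairpins lie between the genes Hic1 and Ovca2, with 222 bases from the end of miR-212-3p to the start of miR-132-5p. A 300-base window of the plus strand, chr10:60521892-60522191 in GRCr8, covers most of that spacer and the whole of miR-132. In the set of promoter windows used here it belongs to a non-coding RNA, LOC120095261, and the precursors have no window of their own. Whether it acts as a promoter was not tested. It is shown because it holds a cAMP response element, the motif CREB is known to bind, beside the miRNA. The capitals mark, in order, the element, miR-132-5p and miR-132-3p.
window: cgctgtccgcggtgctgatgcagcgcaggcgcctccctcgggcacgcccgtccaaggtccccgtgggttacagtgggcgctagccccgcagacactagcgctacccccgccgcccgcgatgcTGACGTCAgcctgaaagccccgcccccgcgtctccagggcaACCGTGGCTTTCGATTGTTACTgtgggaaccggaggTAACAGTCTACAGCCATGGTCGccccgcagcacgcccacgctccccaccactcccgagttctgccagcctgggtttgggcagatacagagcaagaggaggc
The motif searched was the palindrome TGACGTCA, which is the same on both strands, and it begins at base 60522014, with 11 bases between it and the miR-132 hairpin. It occurs in 612 of the 33469 promoter windows of that set (1.83%). Its 5-letter core TGACG, searched on both strands, occurs in 21.2% of the windows, and its 2 matches here both lie inside the palindrome. A match of letters does not show binding.

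The libraries held 1482367 to 3599483 miRNA reads. Mean depth in miRNA reads was 3.54 ± 0.052 M (M for mega) for Ad-GFP, 2.34 ± 0.54 M for Ad-Yap WT and 1.73 ± 0.32 M for Ad-Yap shRNA (SD, n = 3). The library totals implied by the deposited RPM went the other way. They were 13.75 to 14.33 M for Ad-GFP, 16.72 to 22.05 M for Ad-Yap WT and 20.53 to 21.21 M for Ad-Yap shRNA. The miRNA reads made up 24.6 to 26.2%, 8.76 to 17.6% and 7.22 to 9.87% of these totals, in the same order. The cause of this difference in share was not tested. Replicate 1 had the most miRNA reads in each group. All 6 cardiomyocyte miRNAs listed as markers were detected, among them miR-1-3p and miR-499-5p, and together they took 4.96 to 8.01% of the miRNA reads of a library. Fibroblast markers, led by miR-21-5p, took 3.32 to 4.92%, endothelial markers 0.442 to 0.616%, smooth muscle markers 1.21 to 1.81%, blood cell markers 0.0236 to 0.0795% and neuronal markers 0.0755 to 0.136%, and no marker in any of these lists was at 0 in all libraries. The cultures therefore also held miRNAs enriched in other cells, and fewer cells of a type cannot be told apart from less RNA per cell.

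The arms were miRNAs of middle abundance, and miR-132-5p was the main product. Levels are given as CPM, reads per M miRNA reads after TMM scaling (a factor per library that assumes most miRNAs do not differ). In Ad-GFP, miR-132-5p stood at 471 ± 30 CPM, miR-212-3p at 118 ± 3.9, miR-212-5p at 68.7 ± 21 and miR-132-3p at 49.6 ± 6 CPM (SD, n = 3). The first 2 levels were clear of their neighbours, while miR-212-5p and miR-132-3p overlapped between libraries. Ranked among the 579 tested entries, miR-132-5p lay between places 121 and 129 in the Ad-GFP libraries and miR-132-3p between 275 and 296. Raw counts of single arms ran from 41 to 2246 reads, where counting error alone is 15.6% and 2.11%. All arms are 22 to 24 bases long, so that length hardly enters these comparisons, but small RNA counts of different sequences also depend on how well each is ligated.

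Knock-down of Yap went with lower levels of miR-212-3p and miR-132-5p. Of the 4 arms, 2 fell past the threshold (adjusted p under 0.05), 1 was lower without passing, and 1 did not pass with a difference near 0. Over all tested miRNAs 17.8% fell past the threshold with Ad-Yap shRNA, and 41.8% passed in either direction.

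miR-212-3p, a seed-sharing partner of miR-132-3p, changed most. Its CPM was 121, 118 and 114 in the Ad-GFP libraries, 99, 103 and 95.2 in the Ad-Yap WT libraries and 59.4, 52.6 and 53.6 in the Ad-Yap shRNA libraries. No group overlapped another, and the Ad-Yap shRNA libraries stood far below the other 6. It was 2.13-fold higher in Ad-GFP than in Ad-Yap shRNA (edgeR log2 fold change -1.09, SE 0.112, adjusted p = 0.000344), the 20th smallest p of the 579. Its rank among tested miRNAs in a library, which no scaling changes, moved from between 221.5 and 224 in Ad-GFP to between 275 and 299 in Ad-Yap shRNA.

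miR-132-5p, the arm opposite the better known miR-132-3p, stood at 463, 504 and 446 CPM in Ad-GFP, at 428, 320 and 328 CPM with Ad-Yap WT and at 284, 217 and 282 CPM in Ad-Yap shRNA. The 3 groups did not overlap, with the Ad-Yap WT libraries in between. It fell with Ad-Yap shRNA (edgeR log2 fold change -0.85, SE 0.154, adjusted p = 0.00334). The miRNAs whose libraries did not overlap and were lower with Ad-Yap shRNA than with Ad-GFP made up 24.4% of those tested, and 3 of the 4 arms were among them.

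miR-132-3p, the arm most studied as a repressor of FoxO3, stood at 56.3, 47.6 and 45 CPM in Ad-GFP, at 41.7, 58.7 and 46.9 CPM with Ad-Yap WT and at 33.5, 31.7 and 39.5 CPM in Ad-Yap shRNA. Each Ad-Yap shRNA library lay below every other library, while the Ad-GFP and Ad-Yap WT libraries were mixed. The difference between Ad-Yap shRNA and Ad-GFP missed the threshold in edgeR, at a log2 fold change of -0.51 (SE 0.18, adjusted p = 0.0541), and it passed in 8 of 12 other settings, among them DESeq2 (log2 fold change -0.59, adjusted p = 0.0196). Its counts were the lowest of the 4, at 41 to 62 reads in the Ad-Yap shRNA libraries.

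miR-212-5p, the arm opposite miR-212-3p, did not pass the test in any comparison with edgeR after TMM scaling. It stood at 79.1, 44.2 and 82.9 CPM in Ad-GFP, at 54.6, 61.6 and 81.6 CPM with Ad-Yap WT and at 71.8, 78.1 and 65.9 CPM in Ad-Yap shRNA. The groups overlapped fully, and Ad-GFP replicate 2 was the lowest of the 9 libraries. With Ad-Yap shRNA its log2 fold change was 0.07 (edgeR, SE 0.263, adjusted p = 0.872), and this sign turned with library size only as the scaling (-0.52), with the deposited library totals (-2.13), with no filter (-0.02) and without Ad-GFP replicate 2 (-0.17). Under the deposited totals miR-212-5p passed as lower (edgeR, adjusted p = 0.00199), where 479 of the 579 miRNAs were called lower.

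**Figure D1:**
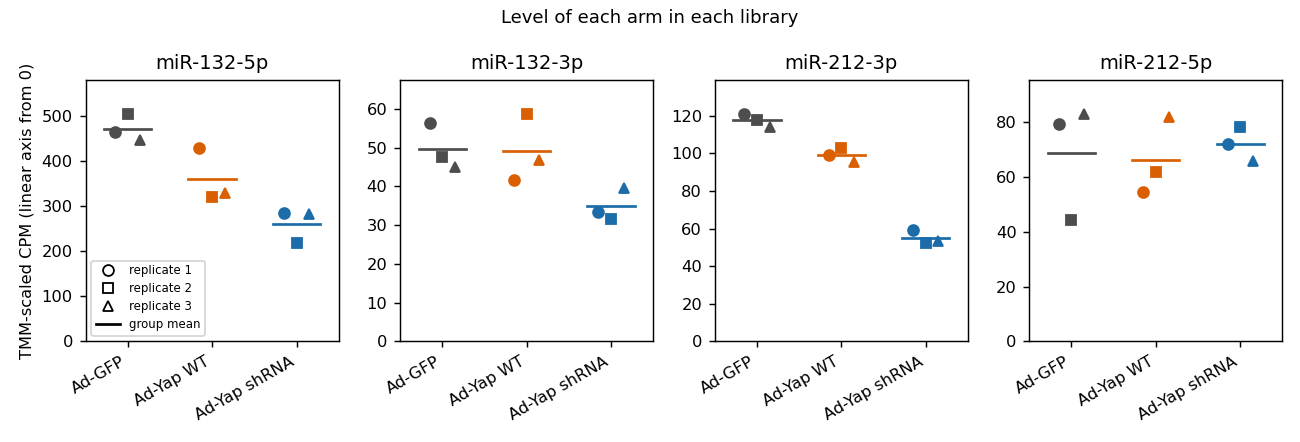
TMM-scaled CPM of each arm (vertical axis, linear, from 0) in the 3 libraries of each group, with the group mean as a line and the replicate number as the marker. miR-212-3p at 52.6 to 59.4 CPM and miR-132-5p at 217 to 284 CPM in Ad-Yap shRNA lie below all other libraries, while the groups of miR-212-5p overlap.

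**Figure D2:**
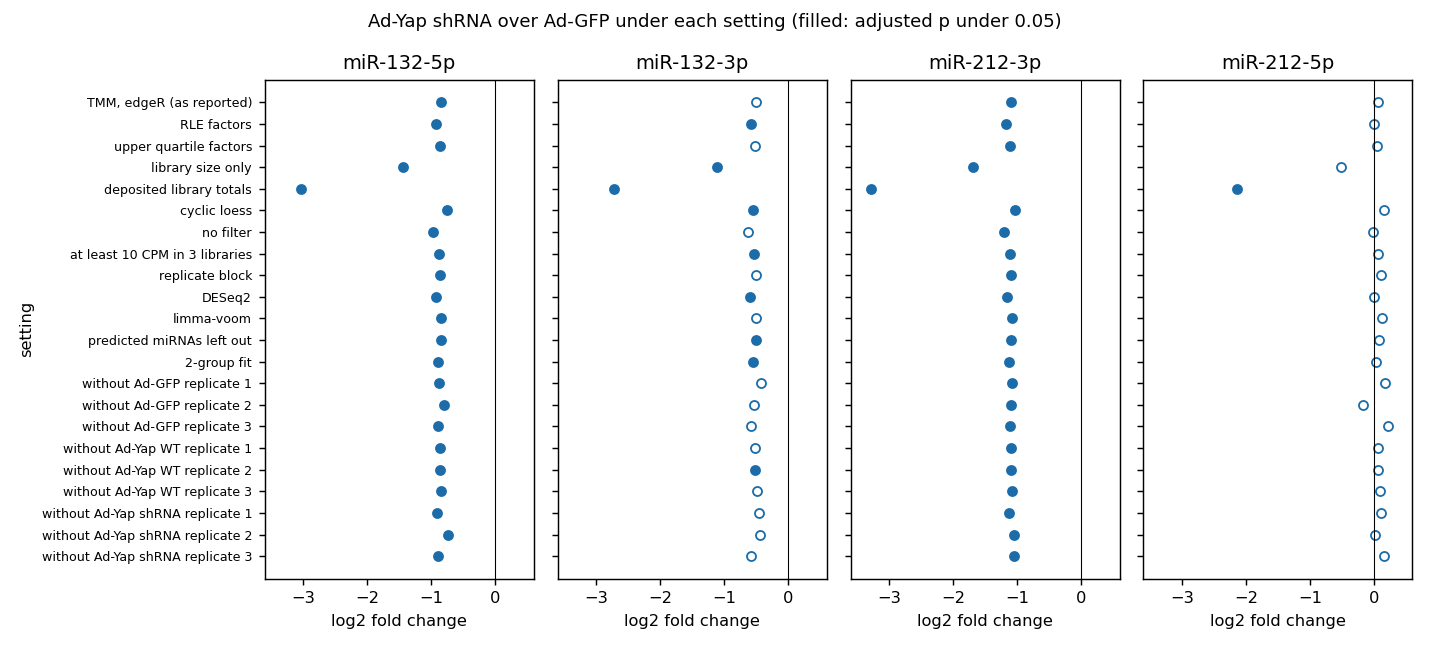
Log2 fold change of each arm for Ad-Yap shRNA over Ad-GFP (horizontal axis) under each setting (vertical axis), with filled points for an adjusted p under 0.05. The points of miR-212-3p and miR-132-5p are filled and below 0 throughout, and those of miR-132-3p are below 0 with some filled. Those of miR-212-5p lie near 0 except under library size only and the deposited library totals, and only the last is filled.

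The scaling set the size of these falls but not the direction of the 3 lower arms. The deposited RPM values use library totals larger than the miRNA reads, and with those totals the median log2 fold change of all tested miRNAs was -2.15 for Ad-Yap shRNA against Ad-GFP, compared with 0.04 after TMM scaling. On that scale miR-212-3p was at -3.28, miR-132-5p at -3.04, miR-132-3p at -2.72 and miR-212-5p at -2.13 (edgeR log2 fold changes). The first 3 were thus below the median of all miRNAs and miR-212-5p was close to it. In RPM as deposited, miR-212-3p averaged 36.9 ± 2.2 in Ad-GFP, 12.6 ± 6.2 with Ad-Yap WT and 3.8 ± 1.2 with Ad-Yap shRNA (SD, n = 3). With cyclic loess, a scaling that lets the correction vary with abundance, miR-212-3p was at -1.02 and miR-132-5p at -0.76 (limma, adjusted p = 0.000315 and 0.00696). The lower miRNA depth and share of library totals and the shift in muscle and fibroblast markers given below moved with the same contrast. Their part in the falls was not tested.

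After TMM scaling, overexpression of Yap moved none of the 4 arms past the threshold, against 25% of all tested miRNAs called in either direction, 9.67% lower and 15.4% higher. miR-132-5p was at a log2 fold change of -0.39 (SE 0.153, adjusted p = 0.0967) and miR-212-3p at -0.25 (SE 0.11, adjusted p = 0.137), both with edgeR and both with every Ad-Yap WT library below every Ad-GFP library. Libraries lower without overlap were seen for 22.3% of tested miRNAs in this comparison. miR-132-3p was at -0.02 (SE 0.177, adjusted p = 0.962) and miR-212-5p at -0.06 (SE 0.263, adjusted p = 0.893). The signs of the last 2 turned under cyclic loess (0.05 and 0.06), and that of miR-132-3p also with predicted miRNAs left out (0.01). With the deposited library totals all 4 arms passed as lower, at -1.61 to -1.39 (edgeR, adjusted p = 0.0219 to 0.0302), where 312 of the 579 miRNAs were called lower, and with library size only miR-212-3p passed at -0.56 (edgeR, adjusted p = 0.0451). Within Ad-Yap WT, miR-132-5p was highest in replicate 1, the library with the most miRNA reads. Without that library its log2 fold change was -0.54 (edgeR, adjusted p = 0.0365).

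Set directly against each other, the Yap groups differed in 1 of the 4 arms, miR-212-3p, where 28.5% of all tested miRNAs were called. It was higher with Ad-Yap WT than with Ad-Yap shRNA by a log2 fold change of 0.84 (edgeR, SE 0.112, adjusted p = 0.00164), a direction called for 14.2% of tested miRNAs. miR-132-3p was at 0.49 (SE 0.181, adjusted p = 0.079) and miR-132-5p at 0.46 (SE 0.154, adjusted p = 0.0587), also with no overlap between libraries, which 20.4% of miRNAs showed in this direction. miR-212-5p was at -0.13 (SE 0.264, adjusted p = 0.755), and at 0.15 with library size only and 0.72 with the deposited library totals. In the same comparison 3 of 6 cardiomyocyte markers were lower with Ad-Yap WT (median log2 fold change -0.60, with 0 called under the deposited totals) and 2 of 4 fibroblast markers were higher (median 1.11, with 3 higher under the deposited totals), and their part in the difference was not tested. Both Yap groups are compared with the same 3 Ad-GFP libraries, so the pair of comparisons with Ad-GFP is not independent.

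**Figure D3:**
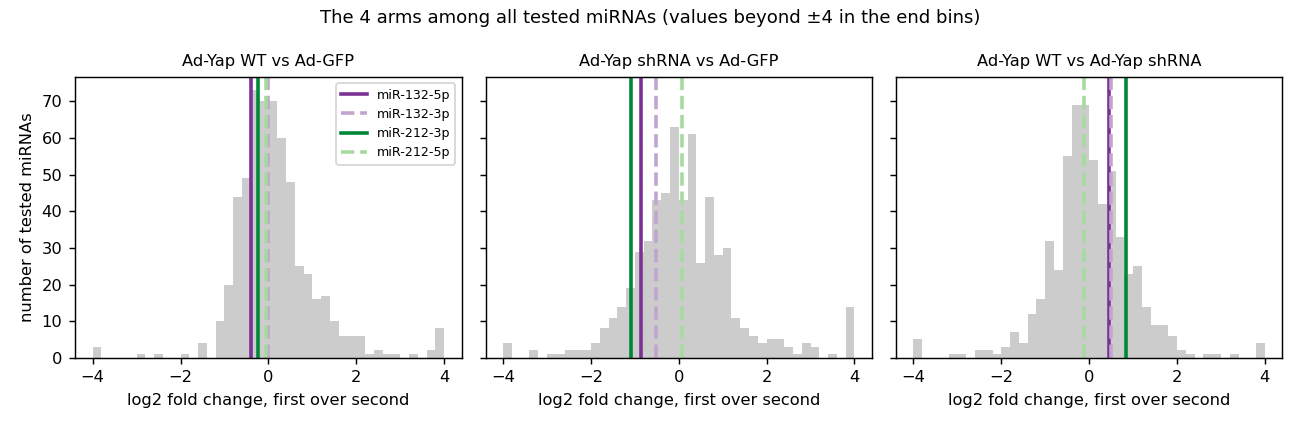
Number of tested miRNAs (vertical axis) by log2 fold change of the first over the second group (horizontal axis, edgeR after TMM scaling), with the 4 arms as coloured lines. With Ad-Yap shRNA, miR-212-3p at -1.09 and miR-132-5p at -0.85 lie in the lower flank of the 579 miRNAs, and in the comparison of Ad-Yap WT with Ad-GFP the 4 arms lie between -0.39 and -0.02.

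Ratios of arms within a library need no scaling between libraries. The ratio of miR-212-5p to miR-212-3p reads was 0.651, 0.375 and 0.729 in the Ad-GFP libraries, 0.552, 0.598 and 0.858 in the Ad-Yap WT libraries and 1.21, 1.49 and 1.23 in the Ad-Yap shRNA libraries. miR-212-3p was thus the more abundant arm in each Ad-GFP and Ad-Yap WT library, and miR-212-5p in each Ad-Yap shRNA library. The log2 ratio was -0.83 ± 0.51 in Ad-GFP and 0.38 ± 0.16 with Ad-Yap shRNA (SD, n = 3), a difference of 1.21 (SE 0.31, two-sided exact permutation p = 0.1, the smallest that 3 libraries against 3 allow). Benjamini-Hochberg adjustment over the 9 ratio tests gave 0.3 for this exact p. Against Ad-Yap WT, at -0.61 ± 0.34, the exact permutation p was also 0.1 (adjusted 0.3), with a difference of -0.98 for Ad-Yap WT less Ad-Yap shRNA. Ad-Yap WT and Ad-GFP overlapped (exact permutation p = 0.7, adjusted 0.787). Arms were paired where both were tested and their names differed only in 5p and 3p, which gave 118 annotated hairpins. Hairpins whose arms are numbered differently were left out. Over the 118, miR-212 was the 1 hairpin whose more abundant arm in all 3 Ad-GFP libraries was the less abundant in all 3 Ad-Yap shRNA libraries. As its arms start close to even and this count was made after the values were seen, it is a description. By the size of the difference between its arms' log2 fold changes, at 1.16 against a median of 0.57 over the 118 hairpins, miR-212 was in place 34.

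miR-132-5p outnumbered miR-132-3p in every library, by 8-fold as the mean over libraries, which was place 50 of the 118 hairpins by excess of the 5p arm. The log2 ratio of miR-132-3p to miR-132-5p was -3.25 ± 0.19 in Ad-GFP, -2.87 ± 0.46 with Ad-Yap WT and -2.88 ± 0.17 with Ad-Yap shRNA (SD, n = 3). All 3 pairs of groups overlapped, with exact permutation p of 0.3, 0.2 and 0.9 for Ad-Yap WT against Ad-GFP, Ad-Yap shRNA against Ad-GFP and the Yap groups against each other (adjusted 0.386, 0.3 and 0.9). Between the seed-sharing arms, the log2 ratio of miR-132-3p to miR-212-3p went from -1.25 ± 0.12 in Ad-GFP to -0.66 ± 0.2 in Ad-Yap shRNA, with no overlap (difference 0.59, SE 0.14, exact permutation p = 0.1, adjusted 0.3). It stood at -1.02 ± 0.22 in Ad-Yap WT, which overlapped both other groups (exact permutation p = 0.2 for each, adjusted 0.3). miR-212-3p still outnumbered miR-132-3p in every library.

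**Figure D4:**
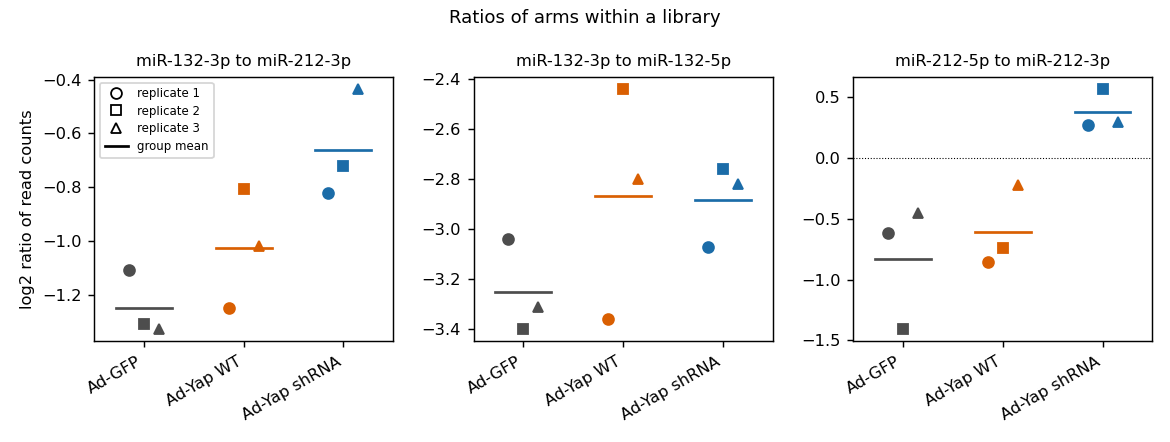
Log2 ratio of read counts of 2 arms in the same library (vertical axis, count plus 0.5) by group, with group means as lines and replicate numbers as markers. The 3 Ad-Yap shRNA libraries are the only ones above 0 for miR-212-5p to miR-212-3p, while the groups overlap for miR-132-3p to miR-132-5p.

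As shares of the reads of all 4 arms, miR-132-5p made up 66.6 ± 3.5% in Ad-GFP, 62.3 ± 5.5% with Ad-Yap WT and 61.5 ± 3.8% with Ad-Yap shRNA (SD, n = 3). miR-212-3p took 16.6 ± 0.21%, 17.4 ± 1.6% and 13.1 ± 0.87%, and miR-212-5p took 9.75 ± 3.1%, 11.6 ± 3% and 17.2 ± 3%. miR-132-3p took 7.01 ± 0.71%, 8.66 ± 2.1% and 8.26 ± 0.76%. The 4 arms together held 2903 to 3193 reads in the Ad-GFP libraries, 943 to 2066 with Ad-Yap WT and 490 to 831 in Ad-Yap shRNA.

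**Figure D5:**
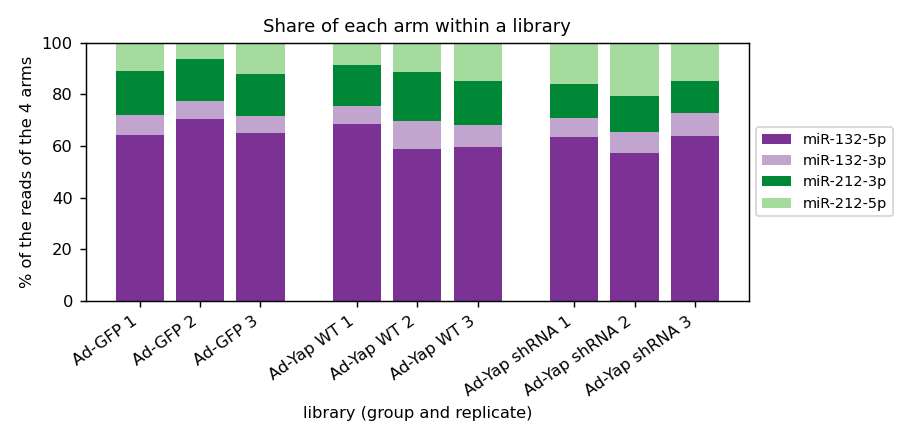
Share of each arm in the reads of the 4 arms (vertical axis, %) in each of the 9 libraries. miR-132-5p takes 57.1 to 70.6% in every library, and miR-212-5p takes 14.9 to 20.6% in the Ad-Yap shRNA libraries.

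The miRNAs whose pattern over the 9 libraries was nearest to that of an arm were found by the root mean square (RMS) difference of log2 CPM, each centred on its own mean. For miR-212-3p the nearest of 427 annotated miRNAs were miR-3120, miR-99a-3p, miR-503-3p, miR-193a-5p and let-7a-2-3p, at 0.137 to 0.174. Its neighbours miR-132-5p and miR-132-3p were in places 10 and 27, at 0.217 and 0.285, and miR-212-5p from the same hairpin was in place 187, at 0.604, close to the median of 0.645. For miR-132-5p the nearest were miR-450b-5p, miR-497-5p, miR-3559-5p, miR-374-3p and miR-450a-5p, at 0.101 to 0.165, with miR-212-3p in place 17. For miR-132-3p they were miR-100-5p, miR-28-3p, miR-125b-2-3p, miR-542-5p and let-7e-3p, at 0.149 to 0.189. For miR-212-5p they were miR-29c-3p, miR-532-5p, miR-151-3p, miR-374-5p and miR-702-3p, at 0.195 to 0.234. The distances are descriptions over 9 libraries. All miRNAs of a library share its depth and scaling factor, and both differed between the groups.

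Other miRNAs linked to hypertrophy were called in both directions after TMM scaling. Over all tested miRNAs 24% were called higher and 17.8% lower with Ad-Yap shRNA. Under library size only 221 of the 579 were called lower in that contrast, and under the deposited totals 479 were. Of 11 miRNAs reported to promote cardiomyocyte hypertrophy, 6 rose, 2 fell and 3 did not pass with Ad-Yap shRNA, with a median log2 fold change of 0.53 against 0.04 over all tested miRNAs (-0.06 with library size only, where the median of all was -0.54 and 2 rose and 3 fell, and -1.66 with the deposited totals, where all 11 fell). The 3 most abundant were miR-22-3p at 1.53, miR-24-3p at 1.00 and miR-23a-3p at 0.55, all past the threshold (edgeR, adjusted p = 0.00163, 0.00259 and 0.00417). The falls were miR-199a-5p (-1.51, adjusted p = 2.04e-05), which is also a fibroblast marker below, and miR-328a-3p (-0.87, adjusted p = 0.000219). With Ad-Yap WT 4 rose, 1 fell and 6 did not pass, with a median of 0.30, where 15.4% of all tested miRNAs were called higher and 9.67% lower. With library size only 2 rose and 3 fell (median -0.02), and with the deposited totals 0 rose and 7 fell (median -1.05).

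Of 14 miRNAs reported to restrain hypertrophy, 7 rose, 3 fell and 4 did not pass with Ad-Yap shRNA after TMM scaling. Over all tested miRNAs 24% were called higher and 17.8% lower. The median log2 fold change of the 14 was 0.39. With library size only it was -0.20, where 2 rose and 4 fell, and 221 of the 579 tested miRNAs were called lower. With the deposited totals it was -1.80, where all 14 fell and 479 of the 579 were called lower. The most abundant of the 14 were miR-26a-5p at 1.07, miR-99a-5p at 0.78 and miR-1-3p, a muscle miRNA, at 0.82 (edgeR, adjusted p = 0.00163, 0.00418 and 0.00158). Among the falls, miR-378a-3p, had raw counts from 33 to 76289 within the Ad-GFP group and is uncertain. Like miR-1-3p, the list's miR-133a-3p and miR-133b-3p are also cardiomyocyte markers. With Ad-Yap WT 2 rose, 1 fell and 11 did not pass, with a median of 0.18, against the same 15.4% and 9.67% over all tested miRNAs. None of the 14 rose under upper quartile factors (1 fell), under library size only (2 fell, median -0.13) or under the deposited totals (10 fell, median -1.11).

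Of 4 other miRNAs reported to target FoxO3, all rose with Ad-Yap shRNA after TMM scaling, with a median log2 fold change of 1.44, where 24% of all tested miRNAs were called higher. With upper quartile factors or library size only 3 of them rose (medians 1.41 and 0.84), and with the deposited totals 0 rose and 2 fell (median -0.78). They were miR-30d-5p at 1.30, miR-155-5p, known from inflammation and also in the promoting list, at 0.53, miR-182 at 1.58 and miR-96-5p at 2.07 (edgeR, adjusted p = 0.000881, 0.0379, 0.00569 and 0.000219). With Ad-Yap WT 3 rose and 1 did not pass, with a median of 1.17, against 15.4% of all tested miRNAs called higher. With library size only 2 rose, and with the deposited totals 0 rose and 1 fell (median -0.20).

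Markers of all 6 cell type lists had calls in the contrast of Ad-Yap shRNA with Ad-GFP. After TMM scaling 24% of all tested miRNAs were called higher in that contrast and 17.8% lower. With the deposited totals 479 of the 579 tested miRNAs were called lower in it, and with library size only 221 were, so that falls counted on those scales stand against that background. With Ad-Yap shRNA 4 of 6 cardiomyocyte markers rose and 0 fell after TMM scaling (1 rose with library size only, and all 6 fell with the deposited totals). Their summed levels were 46500 to 50170 CPM in the Ad-GFP libraries and 87510 to 104300 CPM in the Ad-Yap shRNA libraries. As plain shares of miRNA reads, without TMM factors, these were 5.73 to 6.06% and 7.15 to 8.01%. Of the fibroblast markers 2 of 4 fell, miR-199a-5p and miR-199a-3p, and 1 rose, miR-21-5p (0 rose with library size only or the deposited totals). The fourth, miR-214-3p, was at -0.96 and did not pass (edgeR, adjusted p = 0.0684). The median log2 fold change of the 4 was -1.24 after TMM scaling, -1.83 with library size only and -3.45 with the deposited totals. Over all tested miRNAs these medians were 0.04, -0.54 and -2.15. Most abundant of the 4 was miR-21-5p, at means of 21310 CPM in Ad-GFP and 36580 CPM in Ad-Yap shRNA. Summed levels of the 4 were 34790 to 38110 CPM in Ad-GFP and 37600 to 45700 CPM in Ad-Yap shRNA. The plain shares of miRNA reads went the other way, from 4.39 to 4.7% in Ad-GFP down to 3.32 to 3.51% in Ad-Yap shRNA. Neuronal markers, from a tissue known to be rich in miR-132 and miR-212, had 3 of 5 tested members higher and 0 lower (0 higher and 1 lower with library size only, 0 higher and 4 lower with the deposited totals). They summed to 963 to 1077 CPM in Ad-GFP and 943.1 to 1254 CPM in Ad-Yap shRNA. The plain share of the 6 listed in the miRNA reads was lower with Ad-Yap shRNA, at 0.0755 to 0.111% against 0.116 to 0.136% in Ad-GFP. Both endothelial markers rose, miR-126a-3p at 0.76 and miR-126a-5p at 1.10 (edgeR, adjusted p = 0.00231 and 0.00949), where 0 rose with library size only and both fell with the deposited totals. Of the smooth muscle markers miR-145-5p rose (1.16) and miR-143-3p fell (-0.32), and both fell with the deposited totals. Of 5 blood cell markers miR-142-5p fell (-1.48, edgeR adjusted p = 0.0196) and 4 did not pass, while 2 fell with library size only and all 5 with the deposited totals. The part of these markers in the values of the 4 arms was not tested.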

How the data were processed

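Small RNA libraries of 9 cell samples were prepared with an MGIEasy kit and read as 50 bases from 1 end, per the labels' protocols, which also describe an oligo(dT) step for mRNA. Bowtie2, DESeq2 and build rn6 are listed, per the submitters' processing notes, without role or version. The table as deposited by the authors gives raw read counts per library, and beside them the authors' RPM, which imply library totals of 13.75 to 22.05 M. What these totals count is not stated. The authors' mean columns were not used. Counts were tested with edgeR 4.0.16 (R 4.3.3): filterByExpr, TMM, glmQLFit and glmQLFTest on all 9 libraries with 1 mean per group, two-sided, Benjamini-Hochberg over 579 miRNAs, threshold 0.05; SE is the log2 fold change over the square root of F. The common biological CV was 45.1%. Ratios used counts plus 0.5 and exact permutation tests (scipy 1.17.1). Alternatives used DESeq2 1.42.0, limma 3.58.1, other scalings, filters, fits of 2 groups, a replicate block and each library left out. Named miRNAs were the 4 arms, the 5 nearest patterns to each and the 3 most abundant members of each list; beyond this rule, other list members were named after their values were seen. The arms and lists were chosen with earlier results of these data known. The script was tested on simulated data. Sequences come from RefSeq tables (GRCr8), in which all 4 arms matched by name. PCR copies are not separate molecules, so the counting errors cover counting alone.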

Additional observations from a re-analysis of the deposited data

How the results depend on the processing

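The falls of miR-212-3p and miR-132-5p with Ad-Yap shRNA, and the difference of miR-212-3p between the Yap groups, kept their direction and passed in all 12 settings and all 9 runs without 1 library. With a replicate block they were -1.09, -0.86 and 0.84 (adjusted p = 0.00215, 0.00732 and 0.0058), and the block changed no call of the 4 arms. Correlations of same-numbered deviations between groups ran from -0.328 to 0.33. They were not set against differently numbered libraries, so they do not settle whether replicate numbers pair the samples. For miR-132-3p with Ad-Yap shRNA, the calls gained were at -0.58 (RLE factors), -1.11 (library size only), -2.72 (deposited library totals), -0.54 (cyclic loess), -0.53 (at least 10 CPM in 3 libraries), -0.59 (DESeq2), -0.51 (predicted miRNAs left out) and -0.55 (2-group fit), and -0.58 to -0.42 without 1 library, passing without Ad-Yap WT replicate 2 (adjusted p = 0.0355). Between the Yap groups miR-132-3p passed at 0.76 (library size only), 1.33 (deposited totals) and 0.59 (cyclic loess), and miR-132-5p at 0.76 (library size only) and 0.51 (DESeq2). With Ad-Yap WT against Ad-GFP, the deposited totals gave calls at -1.39 for miR-132-3p, -1.61 for miR-132-5p, -1.55 for miR-212-3p and -1.41 for miR-212-5p, where the median of all miRNAs was -1.26, and library size only gave -0.56 for miR-212-3p (adjusted p = 0.0451). There the runs without 1 library ranged from -0.17 to 0.091 for miR-132-3p, -0.54 to -0.32 for miR-132-5p and -0.29 to 0.10 for miR-212-5p, so that the sign of the first and last is not set. Signs turned for miR-132-3p under cyclic loess (0.049) and with predicted miRNAs left out (0.0055), and for miR-212-5p under cyclic loess (0.058). For miR-212-5p with Ad-Yap shRNA they turned at -0.52 (library size only), -2.13 (deposited totals, past the threshold with edgeR, adjusted p = 0.00199) and -0.018 (no filter), with -0.17 to 0.22 without 1 library, and between the Yap groups at 0.15 and 0.72 (library size only and the deposited totals), with -0.33 to 0.0022. The difference in the ratio of miR-132-3p to miR-132-5p between the Yap groups (0.018) ran from -0.20 to 0.26 without 1 library, and that of miR-212-5p to miR-212-3p for Ad-Yap WT against Ad-GFP (0.22) from -0.069 to 0.41. All other ratio differences kept their sign. The count of called miRNAs with Ad-Yap WT, 145, became 322 with the deposited totals, 90 with no filter and 71 to 148 without 1 library (71 without Ad-Yap WT replicate 3; 83, 96 and 96 without Ad-GFP replicates 1, 2 and 3), and that with Ad-Yap shRNA, 242, became 493 with the deposited totals. Apart from the shift that a scaling makes by construction, the cause was not tested. Counts of 41 to 62 reads limit the precision of miR-132-3p with Ad-Yap shRNA.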
